A study of Mus musculus with 10 samples.

Results

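The genes described here encode the proteins of the cytosolic ribosome. They are all genes whose mouse symbol is Rpl or Rps with a number, with or without a closing letter and digit, together with Rplp0, Rplp1, Rplp2 and Rpsa. Of the 19938 genes tested, 61 met this rule: 21 proteins of the small subunit, 33 of the large subunit and 7 paralogues whose symbols end in l or l1. RefSeq lists 84 protein-coding mouse genes whose symbols fit the rule, and 60 of them were measured on a probe set assigned to 1 gene alone. The other member, Rps4l, is not protein-coding there. The 24 protein-coding genes without such a probe set, among them Rpl3, Rpl11, Rps27 and Rpl39, are given no gene value here.

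Osteoblastic lineage cells, which line and build bone, were sorted from 5 control and 5 BA animals, and their RNA was hybridised to Affymetrix Gene ST 1.0 arrays, 1 mouse per array. BA mice carry Scl-tTA::TRE-BCR/ABL. In them a doxycycline-repressed transactivator under control sequence of the Scl gene, active in blood-forming cells, switches on the BCR/ABL oncogene and so a myeloproliferative disease. The controls are described as age-matched, with no genotype given, and all mice were C57BL/6. Doxycycline was removed at 5 weeks of age from both groups, the cells were collected 5 to 6 weeks after that, and RNA from 500 to 2300 cells was amplified. The question was how the RNA of this sorted bone fraction differs between diseased and control mice.

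Each ribosome joins a small subunit, which reads the mRNA, to a large subunit, which forms the peptide bond, and each subunit is an RNA scaffold covered with proteins made in near equal numbers. The genes for these proteins are among the most heavily transcribed in growing cells. Most of their mRNAs begin with a C followed by a run of pyrimidines, the terminal oligopyrimidine (TOP) tract, through which mTORC1 signalling adjusts their translation together with that of the elongation factors. In bone, cells that secrete collagen matrix carry a large protein synthesis load, and loss of 1 copy of certain ribosomal protein genes causes Diamond-Blackfan anaemia, with skeletal defects in part of the patients.

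The start sites of 9 members are shown because they carry, or lack, the tract that marks this gene family. Each line gives 15 bases before and 15 bases from the annotated start on, 5′ to 3′ on the gene's strand (RefSeq, GRCm38.p6). Capitals mark the run of C and T that begins at the start base, or the start base alone where it begins none. The lines for Rps10, Rps18, Rpsa, Rpl5 and Rplp0 belong to the members whose groups were apart, Rpl28, Rps6 and Rplp2 are further large and small subunit genes with a tract, and Rpl10l is a testis-expressed intronless copy of Rpl10.
Rps10 (chr17:27635230-27635259, minus strand): gcgccgcgcacgcccCTTCCTTTCCagcct
Rps18 (chr17:33955651-33955680, minus strand): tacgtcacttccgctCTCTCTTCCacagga
Rpl28 (chr7:4792950-4792979, plus strand): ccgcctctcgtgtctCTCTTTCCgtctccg
Rps6 (chr4:86857353-86857382, minus strand): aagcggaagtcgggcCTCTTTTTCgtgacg
Rplp2 (chr7:141447636-141447665, plus strand): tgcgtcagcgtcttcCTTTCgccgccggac
Rpsa (chr9:120127751-120127780, plus strand): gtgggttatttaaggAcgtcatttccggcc
Rpl5 (chr5:107900513-107900542, plus strand): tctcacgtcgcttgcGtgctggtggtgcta
Rplp0 (chr5:115559452-115559481, plus strand): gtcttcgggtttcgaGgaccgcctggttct
Rpl10l (chr12:66284387-66284416, minus strand): tttggcctccattttGcggctggcggtggg
The run is 10 bases long in Rps10, 9 in Rps18 and Rps6, 8 in Rpl28 and 5 in Rplp2. Promoter sequence was at hand for 49 of the 61 members. A run of at least 5 letters C or T that begins with C at the annotated start was found in 10 of the 49 (20.4%), against 3.01% of all 27025 genes in the same table. The letters CGGAAG, the core bound by ETS factors, stood on either strand within 250 bases before and 50 after the start in 33 of 49 members (67.3%), against 18.8% of all genes. The YY1 core AAGATGG, searched on both strands of the same window, stood in 5 members (10.2%, against 7.28%). An annotated start can lie several bases from the true one, so a missing run says only that these letters do not begin there. The median difference between BA and control cells was 0.28 (log2) in the 10 members with the run and 0.18 in the other 39. It was 0.18 in the 33 with CGGAAG and 0.27 in the 16 without.

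No ribosomal protein gene passed the test by itself, yet most members stood somewhat higher in BA cells. At an adjusted p under 0.05 (limma over all genes) 0 of 61 were called, where the background over all genes was 0.00502%, a single gene. BA cells were above control cells in 51 of the 61 members, with a median difference of 0.20 on the log2 scale, while the median over all genes tested was -0.06 and 37.9% of them lay above 0. At an unadjusted p under 0.05, 17 members were higher (27.9%) and 0 lower, where 4.13% of all genes were higher and 5.27% lower. The groups did not overlap at all for 5 members, each higher in BA cells (8.20%, against 0.567% of all genes), and 0 members were apart and lower (1.10% of all genes). Array values are relative to the rest of the RNA, so more transcript per cell, more of the cells rich in these transcripts and less of other RNA cannot be told apart.

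**Figure D1:**
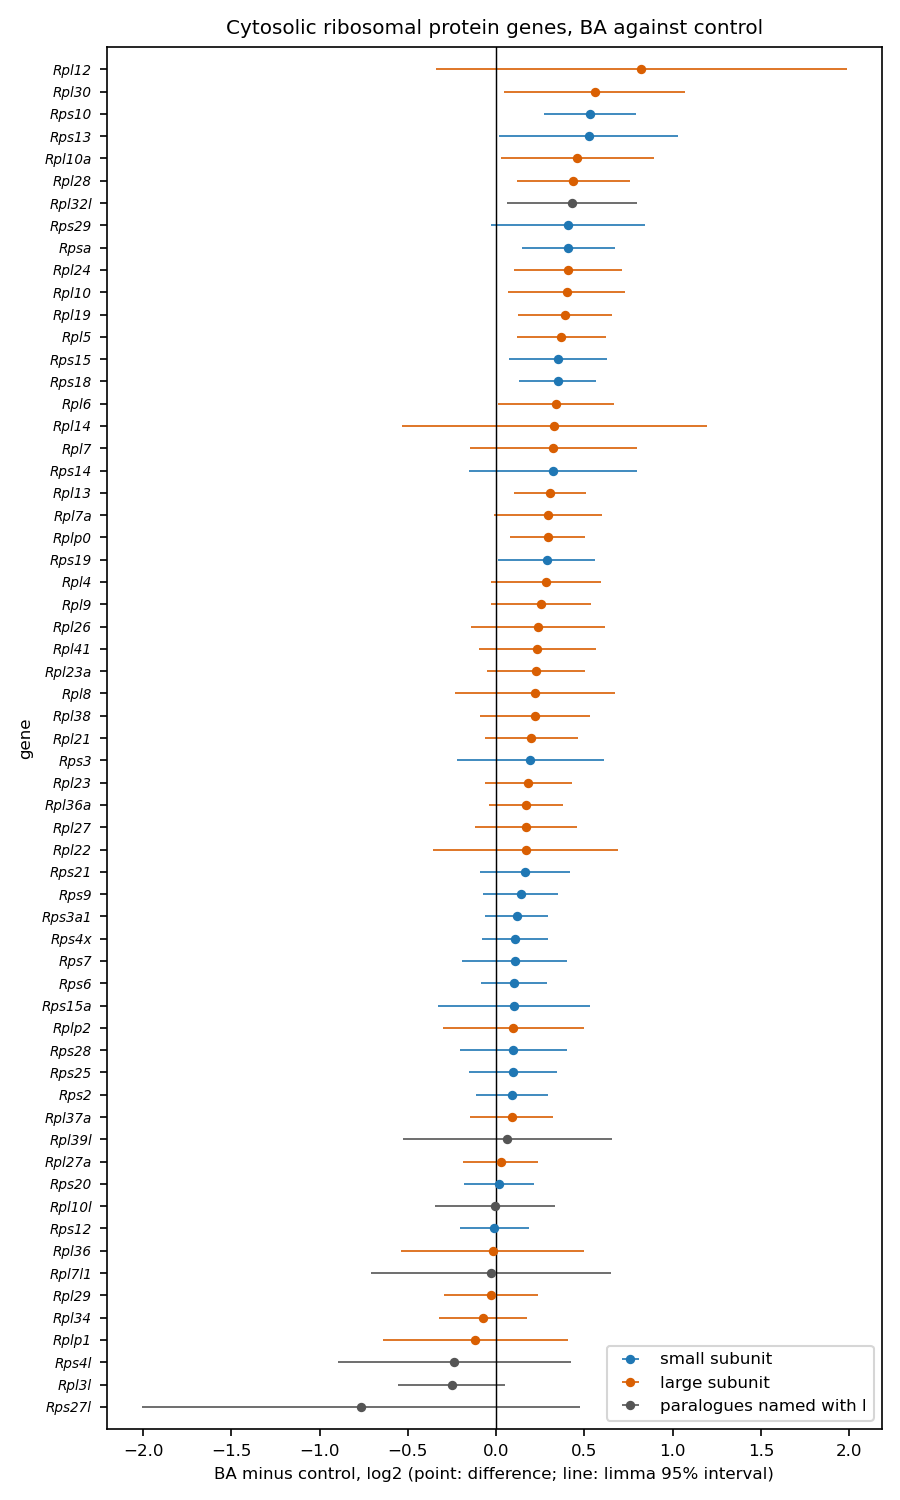
Difference between BA and control cells on the log2 scale (horizontal axis) for each of the 61 ribosomal protein genes (vertical axis, sorted), with limma's 95% interval as a line, n = 5 mice per group. Points of small subunit (blue) and large subunit (orange) genes lie mostly right of 0, up to 0.82 for Rpl12, and those of 5 of the 7 paralogues (grey) lie left of 0. Over all genes tested, 37.9% lay above 0.

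Rps10, a protein of the head of the small subunit and one of the Diamond-Blackfan genes, had the smallest p of all members. It stood at 9.77, 10.31, 10.03, 10.02 and 10.22 on control arrays 1 to 5 and at 10.39, 10.73, 10.61, 10.66 and 10.62 on BA arrays 1 to 5. Every BA array lay above every control array. The means were 10.07 ± 0.21 and 10.60 ± 0.13 (SD, n = 5 each), a difference of 0.53 ± 0.12 (SE), or 1.45-fold, with an adjusted p of 0.384 (limma).

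Rps18, which sits beside the decoding site in the head, gave 10.93, 11.24, 11.05, 11.13 and 11.08 in control cells and 11.35, 11.26, 11.42, 11.57 and 11.57 in BA cells. The groups were apart by the narrow gap between control replicate 2 and BA replicate 2. The difference was 0.35 ± 0.10 (SE; adjusted p = 0.440, limma). Rpsa, the small subunit protein also known as the laminin receptor, gave 11.06, 11.10, 10.88, 11.27 and 11.35 in control cells and 11.65, 11.44, 11.46, 11.38 and 11.77 in BA cells. Here too no array overlapped, though BA replicate 4 and control replicate 5 lay close together. The difference was 0.41 ± 0.12 (SE; adjusted p = 0.452, limma).

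On the large subunit, Rpl5 binds the smallest ribosomal RNA together with Rpl11, and both can hold MDM2, the brake on p53. It read 11.55, 11.36, 11.14, 11.53 and 11.61 on the control arrays and 11.64, 11.79, 11.84, 11.77 and 12.00 on the BA arrays. The groups were apart, and the difference was 0.37 ± 0.11 (SE; adjusted p = 0.461, limma). Rplp0 anchors the stalk that recruits the elongation factors. It read 12.19, 12.26, 11.95, 12.25 and 12.26 in control cells and 12.31, 12.46, 12.58, 12.51 and 12.51 in BA cells. Control replicate 3 lay below the other control arrays, and the difference was 0.29 ± 0.10 (SE; adjusted p = 0.477, limma).

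Rpl13, Rpl19 and Rpl28, all of the large subunit, complete the 8 members with the largest statistic in favour of BA cells. Rpl13 read 10.76, 10.66, 10.61, 10.63 and 10.90 in control cells and 11.02, 10.90, 11.02, 11.17 and 10.97 in BA cells, where BA replicate 2 tied with control replicate 5. Rpl19 read 9.88, 10.31, 10.17, 10.34 and 10.23 against 10.32, 10.54, 10.59, 10.63 and 10.80, and BA replicate 1 fell just below control replicate 4. Rpl28 read 11.17, 11.74, 11.18, 11.58 and 11.05 against 11.74, 11.72, 11.89, 11.64 and 11.92. For these members the groups overlapped or touched, at differences of 0.30 ± 0.09, 0.39 ± 0.12 and 0.44 ± 0.14 (SE).

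**Figure D2:**
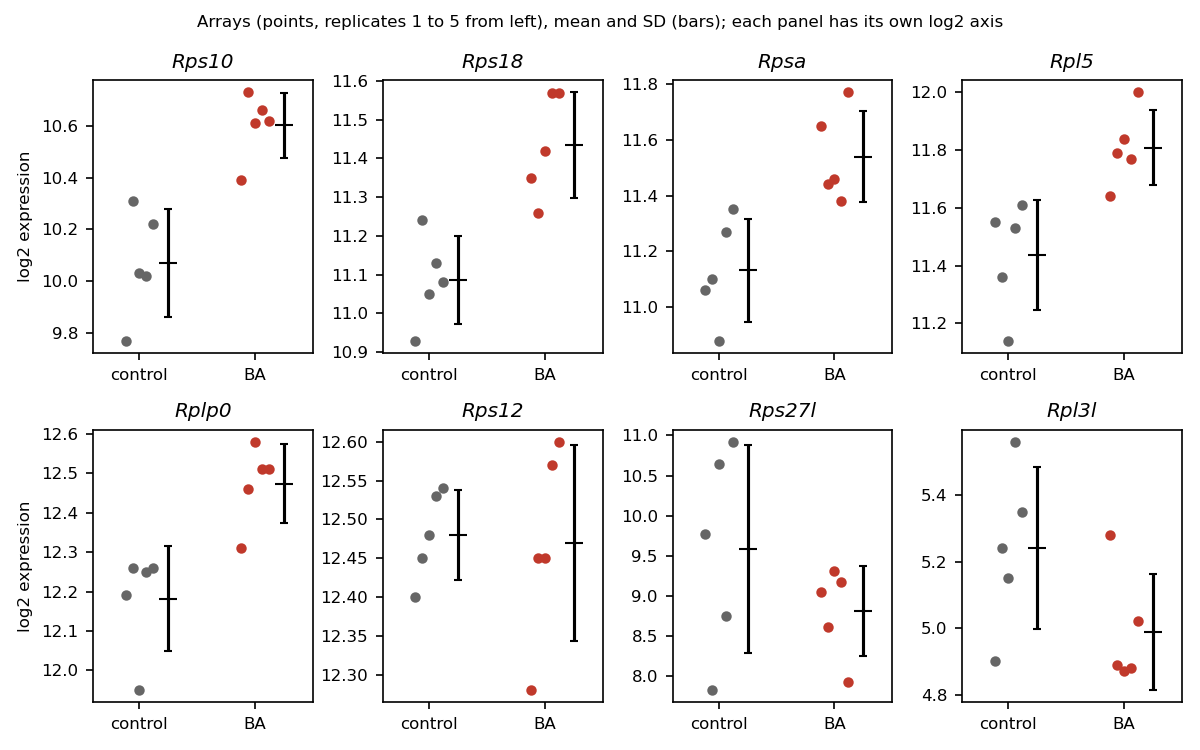
Log2 expression (vertical axes, scaled per gene) on the 5 control and 5 BA arrays for 8 members, with points for arrays and bars for mean and SD. The BA points of Rps10, Rps18, Rpsa, Rpl5 and Rplp0 all lie above the control points, whereas those of Rps12, Rps27l and Rpl3l overlap them.

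The small subunit held 21 members. Of these 20 had a difference above 0, 6 reached an unadjusted p under 0.05 and 0 passed the adjusted test, with a median of 0.14. In the head of the subunit, 10 of the 14 listed genes were measured, with a median of 0.24 and 4 higher at an unadjusted p under 0.05. These were Rps10, Rps18, Rps15 (0.35 ± 0.13, SE), which reaches into the decoding centre, and Rps19 (0.29 ± 0.12), the gene most often mutated in Diamond-Blackfan anaemia. In the body and platform, 11 of 17 were measured and all 11 lay above 0, with a median of 0.12. Rpsa and Rps13 (0.52 ± 0.23) reached an unadjusted p under 0.05. Rps13 stood at 9.12 on control replicate 3 and between 10.22 and 10.71 on the other 9 arrays, and its difference was 0.29 ± 0.10 without that array. Rps6, the protein phosphorylated by the S6 kinases, differed by 0.10 ± 0.08. At the other end Rps12 gave 12.40, 12.45, 12.48, 12.53 and 12.54 in control and 12.28, 12.45, 12.45, 12.57 and 12.60 in BA cells. Its difference was -0.01, with a 95% interval of -0.21 to 0.19, so a difference of the size seen for Rps10 lay outside its interval. Rps12 had the highest mean level of all members (12.48, against 10.34 for Rps10). The 9 members between levels 12 and 13 had a median of 0.11, and the part of level in this was not tested.

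The large subunit held 33 members, of which 29 had a difference above 0 and 10 reached an unadjusted p under 0.05, with a median of 0.24. Whether this differs from the small subunit was not tested. Beside the 5 genes given above, these 10 were Rpl24 (0.41 ± 0.14, SE), Rpl10 (0.40 ± 0.15), Rpl30 (0.56 ± 0.23), Rpl10a (0.46 ± 0.20) and Rpl6 (0.34 ± 0.15). Rpl30 averaged only 6.5, near the array medians (6.04 to 6.17). It stood at 7.62 on BA replicate 5 and between 5.97 and 6.92 on all other arrays. Rpl10, one of the last proteins added to the subunit before it can join the small one, read 11.23, 11.59, 11.70, 11.57 and 11.03 in control and 11.53, 11.77, 11.92, 11.99 and 11.91 in BA cells, so 4 of the 5 BA arrays lay above every control array. Around the exit tunnel, through which the new chain leaves, 5 of the 9 listed genes were measured and all 5 lay above 0 (median 0.24), with Rpl19 alone at an unadjusted p under 0.05. Rpl22, one of these 5, read 8.55, 9.05, 9.13, 8.66 and 8.54 in control and 8.19, 8.95, 9.01, 9.03 and 9.59 in BA cells, a difference of 0.17 ± 0.24, with the lowest and the highest array both in the BA group. Without BA replicate 5 that difference was 0.009.

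The 4 proteins at the stalk gave a median difference of 0.20 and values on both sides of 0. Rplp0, the anchor, is given above. Rplp1 read 12.38, 11.71, 11.22, 11.60 and 11.39 in control cells and 11.03, 11.83, 11.79, 11.78 and 11.28 in BA cells, with wide overlap and a difference of -0.12 ± 0.24 (SE). Its further probe set gave 0.11, the opposite sign, and without control replicate 1 the difference was 0.06. Rplp2, the partner of Rplp1, read 8.22, 8.66, 7.86, 8.39 and 8.30 against 8.24, 8.54, 8.85, 8.07 and 8.22 (0.10 ± 0.18). Rpl12, at the base of the stalk, read 6.37, 7.69, 5.48, 5.65 and 6.18 against 5.98, 6.53, 7.14, 7.19 and 8.64 (0.82 ± 0.52). Rplp2 overlapped throughout, and the largest difference of all members, that of Rpl12, was smaller than the SD within either group, so its wide interval (-0.34 to 1.99) holds 0 and the differences of all other members except Rps27l (-0.77). Without BA replicate 5 its difference was 0.44. Its probe set and that of Rplp2 are among the 4 of 61 that list no curated RefSeq mRNA.

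Among the large subunit genes, 4 had a difference below 0. Beside Rplp1 these were Rpl34 (-0.08 ± 0.11, SE), Rpl29 (-0.03 ± 0.12) and Rpl36 (-0.02 ± 0.23, and 0.18 ± 0.17 without its far BA replicate 1). Rpl34 read 8.90, 9.02, 8.80, 8.88 and 9.19 in control and 8.94, 8.86, 8.68, 8.80 and 9.13 in BA cells. Rpl29 read 10.19, 10.33, 10.47, 10.62 and 10.76 against 10.44, 10.44, 10.53, 10.28 and 10.53. In both genes the BA arrays fell inside or close to the control range. The differences of Rpl29 and Rps12 turned above 0 (0.004 and 0.02) once each array was centred on its median.

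Of the 19 listed Diamond-Blackfan genes, 9 were measured. All 9 lay above 0, between 0.02 (Rps20) and 0.53 (Rps10), with a median of 0.24, and 3 reached an unadjusted p under 0.05 (33.3%). Of all 54 members other than the paralogues, 49 lay above 0 (median 0.23) and 29.6% were higher at that p, which is close to this list. Over all genes 37.9% lay above 0 and 4.13% were higher at that p. Rps14, whose loss of 1 copy underlies the anaemia of the 5q- syndrome, stood at 11.02 on control replicate 1 and between 12.00 and 12.36 on the other 9 arrays. Its difference was 0.32 ± 0.21 (SE) with that array and 0.10 ± 0.11 without it.

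The paralogues are related copies of standard genes, and some of them replace the standard protein in some tissues or conditions. Rps4l is not protein-coding in RefSeq. Of 7 measured, 2 had a difference above 0 and 5 below, with a median of -0.03, and the difference from the other members was not tested. Over all genes 37.9% lay above 0. Rpl3l, Rpl10l and Rpl39l averaged between 5 and 6, below the array medians (6.04 to 6.17), and Rps4l and Rpl7l1 between 6 and 7. Of the genes other than members at those levels, 26.6% and 37.5% lay above 0. Rpl3l, which takes the place of Rpl3 in heart and skeletal muscle, read 4.90, 5.24, 5.15, 5.56 and 5.35 in control and 5.28, 4.89, 4.87, 4.88 and 5.02 in BA cells. The difference was -0.25 ± 0.14 (SE), with BA replicate 1 inside the control range. Rps27l, a copy of Rps27 whose transcription p53 raises, read 9.77, 7.83, 10.65, 8.75 and 10.92 in control and 9.05, 8.62, 9.31, 9.18 and 7.93 in BA cells. The control arrays alone ran from 7.83 to 10.92, and the difference of -0.77 ± 0.56 was smaller than the SD between control mice. It was -0.43 without control replicate 5 and -1.20 without control replicate 2. Rps4l read 6.16 to 6.53 on 4 control arrays, 7.84 on control replicate 3 and 5.91 to 6.70 on the BA arrays, a difference of -0.24 ± 0.30. Rpl7l1 read 6.43 to 6.89 on 4 control arrays, 8.23 on control replicate 2 and 6.69 to 7.13 on the BA arrays (-0.03 ± 0.31). In Rps4l and Rpl7l1 a single control array was high, and without that array the differences lay above 0, at 0.06 ± 0.17 and 0.29 ± 0.14. The testis-expressed Rpl10l read 5.47, 5.66, 5.89, 5.53 and 5.70 against 5.91, 5.74, 5.90, 5.20 and 5.46 (-0.01 ± 0.15). Rpl39l, another copy found in testis, read 5.16, 5.39, 6.18, 5.15 and 4.98 against 4.84, 5.62, 5.88, 5.76 and 5.08 (0.06 ± 0.27). Both overlapped throughout.

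Of the parent genes, Rpl3, Rpl32, Rpl39 and Rps27 had no probe set of their own, and Rpl10 is given above. Rpl7 read 10.06, 10.97, 10.76, 11.00 and 11.21 in control and 10.75, 11.33, 11.05, 11.10 and 11.39 in BA cells (0.32 ± 0.21, SE), with control replicate 1 low and a difference of 0.14 without it. Rps4x read 12.32, 12.32, 12.14, 12.24 and 12.42 against 12.28, 12.41, 12.42, 12.45 and 12.42 (0.11 ± 0.08), and Rpl22, whose paralogue was not measured, is given with the exit tunnel. The groups of both overlapped. Rpl32l was the 1 paralogue at an unadjusted p under 0.05 (0.43 ± 0.17). It read 7.26, 7.50, 6.90, 7.70 and 7.10 in control and 8.01, 7.42, 7.79, 7.77 and 7.62 in BA cells, with 3 BA arrays above every control array.

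The core members, meaning all but the paralogues, tended to vary together from array to array, though not every one did. Their median deviation from each gene's own mean was -0.24, -0.02, -0.20, -0.02 and -0.03 on control arrays 1 to 5 and -0.05, 0.09, 0.13, 0.15 and 0.22 on BA arrays 1 to 5. Control replicates 1 and 3 were low, BA replicate 1 lay inside the control range and the other 4 BA arrays lay above it. Of the 61 members, 22 had their lowest value on control replicate 1 and 18 on control replicate 3, and 21 had their highest on BA replicate 5. With the group means taken out, the mean pairwise correlation over the 10 arrays was 0.26 among the 54 core members, -0.06 among the 7 paralogues and 0.04 among all 19938 genes. The correlation of a core member with the mean of the others ran from 0.92 (Rpl19) to -0.29 (Rpl21), and was 0.05 for Rpl13. These are descriptions, and the points share the arrays and their normalization. Members that vary together are not independent, so 17 members at an unadjusted p under 0.05 are not 17 separate observations.

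**Figure D3:**
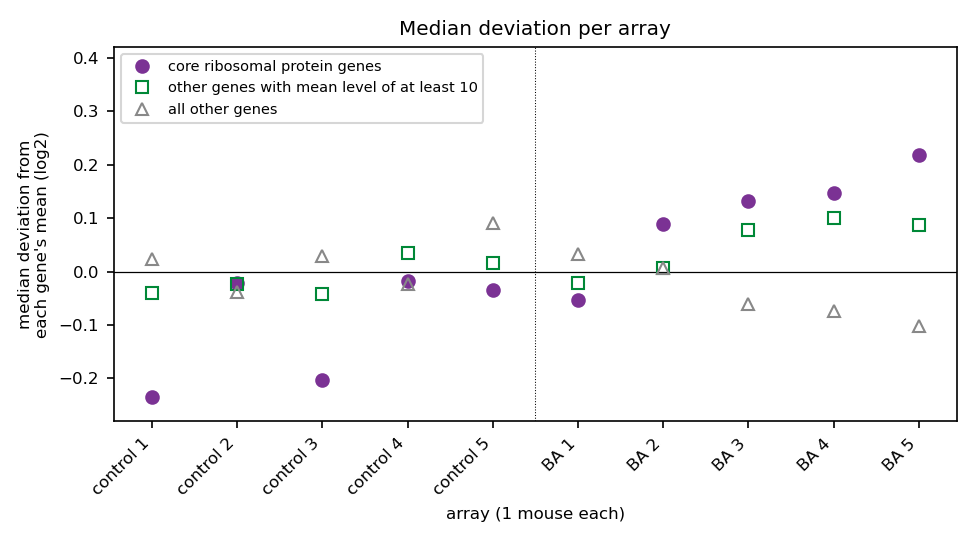
Median deviation (vertical axis, log2) of the 54 core ribosomal protein genes, of 364 other genes with a mean level of at least 10 and of all other genes from each gene's own mean, for each array (horizontal axis). The core genes run from -0.24 on control 1 to 0.22 on BA 5, while all other genes run from 0.09 on control 5 to -0.10 on BA 5.

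Difference and signal level were related over all genes, which bears on a family measured mostly at high signal. Of the members, 46 had a mean level of at least 10 and a median difference of 0.23. The 364 other genes at such levels had a median of 0.08, and 69.2% of them lay above 0, against 42 of the 46 members. At an unadjusted p under 0.05, 14 of these 46 members were higher, and 9.89% of the other 364 genes. Groups were apart and higher for 5 of the 46 members and for 2.20% of the other genes. Between levels 10 and 11, the medians were 0.32 for 11 members and 0.11 for 236 other genes. Between 11 and 12 they were 0.22 for 26 members and 0.06 for 103 other genes, and between 12 and 13 they were 0.11 for 9 members and -0.01 for 24 others. Between 8 and 9 the 4 members had a median of 0.13 and the 1128 other genes 0.18, and between 9 and 10 the 3 members had 0.10 and the 565 others 0.18, so there the members' medians were the lower ones. Of the 8 members below level 8, 3 lay between 5 and 6 (median -0.01, others -0.10), 4 between 6 and 7 (0.27, others -0.07) and 1 between 7 and 8 (0.43, others 0.06).

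**Figure D4:**
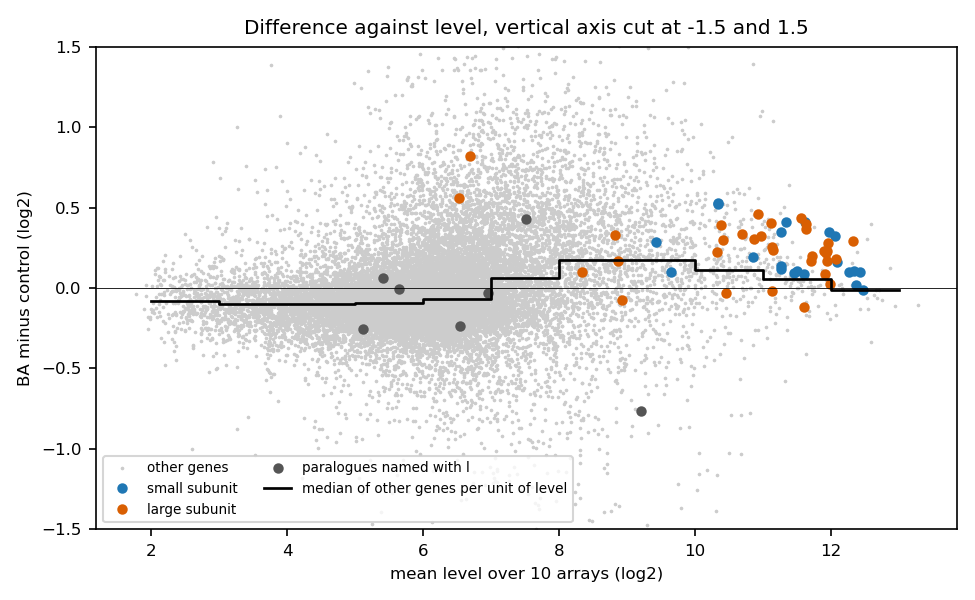
Difference between BA and control cells (vertical axis, log2, drawn between -1.5 and 1.5) against mean level over the 10 arrays (horizontal axis, log2) for all genes in grey and the ribosomal protein genes in colour. The black line is the median of the other genes within each unit of level, at 0.11 between 10 and 11 and 0.06 between 11 and 12, and most of the coloured points there lie above it.

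Blood cell markers also differed between the arrays. The mean of 15 pan-haematopoietic markers lay between 5.92 and 6.99 on control arrays and between 6.30 and 8.52 on BA arrays, the highest on BA replicate 5, where Ptprc (CD45) stood at 9.29 against 5.54 to 5.90 elsewhere. Of these markers 12 lay above 0 and 3 reached an unadjusted p under 0.05, where 37.9% of all genes lay above 0 and 4.13% were higher at that p. The mean of 15 neutrophil markers lay between 6.23 and 8.01 in control and 6.92 and 9.27 in BA cells, and that of 12 macrophage markers between 5.49 and 5.95 and between 5.60 and 6.85. The means of 11 lymphocyte (5.66 to 6.02 in control and 5.57 to 6.04 in BA cells), 10 endothelial (5.54 to 5.91 and 5.45 to 5.69) and 10 chondrocyte markers (10.04 to 10.74 and 10.31 to 10.80) overlapped between groups. The mean of 6 erythroid markers ran from 6.12 to 6.73 in control and from 5.86 to 6.15 in BA cells. All 6 lay below 0 (median -0.36), where 12378 of all 19938 genes did. Gata1, Epor and Slc4a1 reached an unadjusted p under 0.05, where 5.27% of all genes were lower. Epor was lower in BA cells without overlap (1.10% of all genes). With the pan-haematopoietic mean as a covariate, 9 members were higher at an unadjusted p under 0.05 (14.8%, against 3.40% of all genes), each of them among the 17, and the median difference over members was 0.18. All 5 members with groups apart were among the 9, Rps10 at 0.51. Without BA replicate 5 the count was 12 (19.7%). Among the sorted cells' own markers, Col1a1, the main collagen of bone, averaged 10.65 ± 0.33 in control and 9.40 ± 0.78 (SD, n = 5 each) in BA cells. Its groups overlapped, and the adjusted p was 0.399 (limma). Of 9 osteoblast markers 7 lay below 0, against 12378 of all 19938 genes. At an unadjusted p under 0.05, 5 were lower, where 5.27% of all genes were. Alpl (0.47 ± 0.27, SE) and Sp7 (0.03 ± 0.43) lay above 0. Ibsp and Sparc, bone matrix proteins, averaged 12.71 and 12.99 in control and 12.70 and 12.88 in BA cells. The part of the makeup of the sorted cells in the members' differences was not tested. The pan-haematopoietic covariate ran partly with group and was highest on BA replicate 5, so it cannot separate makeup from group.

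Most ribosomal protein mRNAs have many processed copies in the genome, and arrays hold several probe sets for them. The 61 members had 217 probe sets assigned to 1 gene, up to 14 for a gene. Of the 156 not used above, 137 had a difference above 0 (median 0.24), and 54 were higher (34.6%) and 0 lower at an unadjusted p under 0.05. Over all genes 4.13% were higher at that p. A mean of at least 10 was reached by 145 of the 156, with 128 above 0 and 33.1% higher at that p. Of the 364 other genes at such levels, 69.2% lay above 0 and 9.89% were higher. The 6 further probe sets of Rps18 ran from 0.31 to 0.42, the 12 of Rpl23a from 0.20 to 0.26 around 0.23 for the one used, and the 13 of Rps12 from -0.01 to 0.05. Such close values come from probe sets that can share probes or detect the same mRNA, so they are not independent measurements. The 2 probe sets of Rpl23 differed in sign, at 0.18 ± 0.11 and -0.40 ± 0.50 (SE), the second at a mean level of 8.9 against 12.1. A further 237 probe sets listed a member beside other genes, mostly predicted genes and pseudogenes, and 230 of them lay above 0, with a median of 0.20, and 58 were higher and 0 lower at an unadjusted p under 0.05 (24.5%). In the 1384 other probe sets with several genes the median was -0.10 and 4.91% were higher at that p.

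The elongation factors lay above 0 as well, and whether the start sites of these listed genes carry the tract was not examined. All 5 measured of 6 lay above 0, with a median of 0.40, and 4 reached an unadjusted p under 0.05, though 0 passed the adjusted test. Over all genes 37.9% lay above 0 and 4.13% were higher at that unadjusted p. Eef2, which moves the ribosome along the mRNA, read 10.64, 10.82, 10.73, 11.05 and 10.66 in control and 11.09, 11.17, 11.25, 11.29 and 11.10 in BA cells. The groups were apart, with a difference of 0.40 ± 0.10 (SE; adjusted p = 0.384, limma). They were also apart for Eef1d (0.32 ± 0.12), an exchange factor for Eef1a1, the carrier of aminoacyl-tRNA. Eef1a1 itself differed by 0.31 ± 0.12 and Eef1b2 by 0.46 ± 0.18, with overlap. Among initiation factors, 22 of 27 were measured, 20 lay above 0 (median 0.19), and Eif4b (0.50 ± 0.17), Eif4e (0.52 ± 0.19), Eif3f (1.08 ± 0.41) and Eif2s2 (0.44 ± 0.19) reached an unadjusted p under 0.05. Their mean levels ran from 7.28 to 11.24. Between levels 8 and 9 and between 9 and 10, 68.3% and 69.6% of genes other than members lay above 0 (median 0.18 in both). At that p 12.1% and 14.2% of those genes were higher, against 18.2% of the initiation factors. Of 9 measured other TOP mRNAs, 6 lay above 0 (median 0.09, and -0.02 with quantile normalization) and Pabpc1 (0.27 ± 0.09) and Nap1l1 (0.71 ± 0.25) reached that p (22.2%). Mean levels in this list ran from 8.27 to 12.68. Of the 364 genes other than members at a level of at least 10, 69.2% lay above 0 (median 0.08) and 9.89% were higher at that p. Npm1 differed by 0.18 ± 0.14 and the non-coding Gas5 by -0.06 ± 0.08. Fau, whose product yields a small subunit protein by cleavage, was the 1 measured of 4 fusion and associated proteins and differed by 0.16 ± 0.15.

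Genes that build ribosomes lay mostly above 0, with few at a small p. All 42 ribosome biogenesis factors were measured, 34 lay above 0 (median 0.22), and 3 reached an unadjusted p under 0.05 (7.14%). These were Rrs1 (1.72 ± 0.58, SE), Nop14 (0.76 ± 0.26) and Gnl3 (0.63 ± 0.22), and the next was Ddx10 (1.12 ± 0.51). Of genes other than members, 37.5%, 57.2% and 68.3% lay above 0 between levels 6 and 7, 7 and 8, and 8 and 9. At that p 3.20%, 9.27% and 12.1% of them were higher. Of RNA polymerase I and its factors, 12 of 14 were measured and 8 lay above 0 (median 0.12, and -0.05 without control replicate 3). Polr1d (0.78 ± 0.32) and Polr1c (0.84 ± 0.36) reached that p (16.7%, against 4.13% of all genes), while Rrn3 differed by 0.86 ± 0.45 and Polr1e by -0.21 ± 0.12. Mean levels in this list ran from 5.56 to 11.54. Of the mTORC1 and MYC list, 15 of 16 were measured, 7 above and 8 below 0 (median -0.03), with 0 at an unadjusted p under 0.05. The smallest p there belonged to Rheb (0.54 ± 0.25), the activator of mTORC1, Myc (0.26 ± 0.13), Eif4ebp2 (0.39 ± 0.21) and Mxd1 (0.52 ± 0.32). Mxd1 stood at 9.08 on BA replicate 5, and its difference was 0.17 without that array. Of 12 genes of the p53 response, which free ribosomal proteins can trigger, 8 were measured, 3 above and 5 below 0 (median -0.03). Ccng1 (0.90 ± 0.47), Mdm2 (0.68 ± 0.41), Sesn2 (0.36 ± 0.24) and Phlda3 (-0.31 ± 0.22) had the smallest p, and 0 reached 0.05 unadjusted. Without control replicate 5 Ccng1 differed by 0.43, and without control replicate 3 Mdm2 differed by 0.32. In these 7 lists and in Fau, 0 genes passed the adjusted test.

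**Figure D5:**
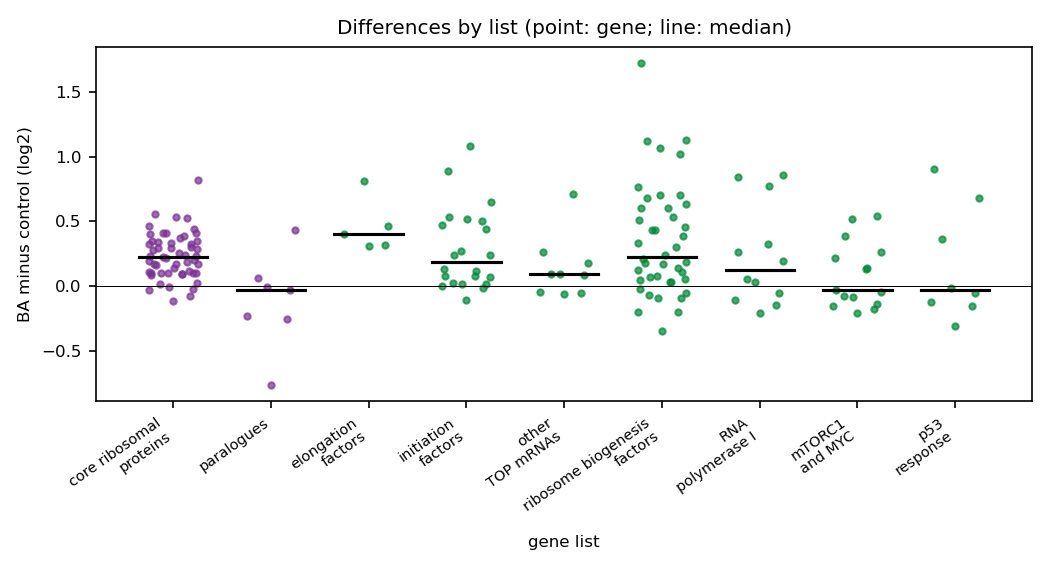
Differences between BA and control cells (vertical axis, log2) of the genes in each list (horizontal axis), with a point per gene and a line at the median. The medians are 0.23 for the 54 core ribosomal protein genes, -0.03 for the 7 paralogues, 0.40 for the 5 elongation factors and -0.03 for the mTORC1 and MYC list.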

How the data were processed

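The deposited table holds log2 values of 35557 probe sets, rounded to 2 decimals, with none absent on the 10 arrays. GCRMA, without a version, is named per the submitters' processing notes, and the log base was inferred from the values (1.21 to 13.7). GCRMA compresses differences between dim probe sets, and no detection calls were used. A platform annotation table gave 21789 probe sets 1 gene symbol, 1621 several and 12147 none. Each gene took its 1-symbol probe set of highest average (19938 genes). All 61 members matched a RefSeq gene ID.

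Groups were tested by limma's moderated statistic (version 3.58.1, under R 4.3.3; two-sided, no covariate, no filter), and p-values were adjusted over all genes by Benjamini-Hochberg. Differences are BA minus control. Array medians over genes lay between 6.04 and 6.17, and precision is set by the 5 mice per group. The script was tested on simulated data.

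The members and lists were chosen with earlier results of these data known. Values per array are given for the 8 members with the largest statistic in each direction, those with groups apart, and paralogue, parent and stalk genes (ranges for Rps4l and Rpl7l1), while companion lists give up to 4 genes with the smallest p. The members' pattern from array to array, the level comparison and further probe sets were described after seeing the data. Alternatives were a replicate block, quantile normalization, median centring, a filter on dim genes, trend and robust eBayes, array weights, probe set means, a threshold of 0.10, covariates and leaving out each array. One item named by that rule is not reported here.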

Additional observations from a re-analysis of the deposited data

Results flagged for a closer look

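Over the 61 members and both groups, 122 sets of 5 arrays were searched for an array far from the other 4 (a gap above 0.71 of the range), and 9 held one. Chance flags about 1 in 20 sets. In control cells these were Rps14 on replicate 1 (11.02, others 12.04 to 12.16), Rps13 on replicate 3 (9.12, others 10.22 to 10.47), Rplp0 on replicate 3 (11.95, others 12.19 to 12.26) and Rpl7a on replicate 5 (9.82, others 10.27 to 10.44). Rps4l on control replicate 3 (7.84, others 6.16 to 6.53) and Rpl7l1 on control replicate 2 (8.23, others 6.43 to 6.89) lay above the rest. In BA cells all 3 were on replicate 1, for Rpl36 (10.32, others 11.26 to 11.36), Rps2 (11.44, others 11.65 to 11.73) and Rps4x (12.28, others 12.41 to 12.45), each below the other 4 arrays.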

How the results depend on the processing

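No member passed the adjusted threshold under any alternative run, including a threshold of 0.10. The count of members higher at an unadjusted p under 0.05 is given with the share of all genes tested in brackets. It was 16 with the replicate block (4.62%), 12 with quantile normalization (3.40%) and 19 with median centring (4.86%). Among genes above the median level it was 15 of 58 members (6.52%). The count was 15 with trend and robust settings (3.76%), 20 with array weights (4.63%) and 18 with probe set means (4.14%). With Xist as a covariate, which was added after seeing the data, it was 13 (3.91%). It became 9 with the pan-haematopoietic covariate (3.40%), and 12 to 18 without each array in turn (3.13% to 5.02%). The replicate numbers correlated between groups at -0.10 to 0.11, so they were not taken to pair mice. The count lower was 0 to 1 without each array: Rpl3l without control replicate 1 or BA replicate 1, and Rps27l without control replicate 2. The median over members stayed above 0, at 0.11 with quantile normalization (small subunit 0.05, large subunit 0.16) and 0.12 to 0.24 without each array, lowest without control replicate 1. Without each array the medians ran from -0.13 to 0.05 for the paralogues, -0.05 to 0.27 for RNA polymerase I, -0.09 to 0.06 for mTORC1 and MYC and -0.08 to 0.07 for the p53 response, and the p53 median was 0.17 among genes above the median level. The median of other TOP mRNAs was -0.02 with quantile normalization and 0.17 without BA replicate 1. Without 1 array, Eif2s2 went down to 0.29, Npm1 to 0.09, Eif4ebp2 to 0.23, Sesn2 to 0.21, Phlda3 to -0.14 and Fau to 0.06. For the 5 members with groups apart the differences stayed above 0 in the alternatives run, for Rps10 between 0.46 and 0.59 (adjusted p 0.280 to 0.719). Signs of single genes turned as follows: with quantile normalization Rpl10l (0.0442), Rps4x (-0.0017) and Rplp2 (-0.0516), with centring Rpl29 (0.004), Rps12 (0.024), Rpl7l1 (0.006) and Rpl10l (0.026), with array weights Rps12 (0.00337) and Rpl10l (0.00623), with the pan-haematopoietic covariate Rpl10l (0.0611), Rpl22 (-0.015) and Fau (-0.00887), and with Xist Rpl7l1 (0.0269) and Rpl10l (0.0446). Without each array the ranges were -0.362 to 0.0585 for Rps4l, -0.228 to 0.062 for Rplp1, -0.101 to 0.0415 for Rpl29, -0.0425 to 0.0375 for Rps12, -0.161 to 0.29 for Rpl7l1, -0.075 to 0.103 for Rpl10l, -0.047 to 0.266 for Rpl39l and -0.0185 to 0.192 for Rplp2. The cause of these shifts was not tested. Signal over background could not be judged.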
